A study of Oryza sativa with 12 samples.

Results

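The rice genes studied here are the 4 non-symbiotic hemoglobins NSHB1, NSHB2, NSHB3 and NSHB4, measured in germinating embryos of Oryza sativa cultivar Dongjin. The search took every probe set of the array that maps to 1 gene with the symbol or synonym NSHB or HB plus a number, and it found 8 of 36643 probe sets, each for a gene of its own among the 24160 genes named this way. Of these, 4 carry the hemoglobin names and 4 do not. The other 4 are HOX10, HOX29, HOX9 and WOX4, homeobox transcription factor genes for which HB is an older name, so they are kept apart below. Each hemoglobin gene has 1 probe set. NSHB1, NSHB3 and NSHB4 follow each other along the chromosome with 0 protein-coding genes between neighbours, and 40 protein-coding genes lie between NSHB2 and NSHB1 in the RefSeq gene order.

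Total RNA was hybridised to 12 arrays, 2 for each of 6 conditions. In GlcDNP and MtlDNP, embryos germinated in air with 0.08 mM 2,4-dinitrophenol (DNP), a chemical that uncouples respiration from ATP synthesis and was used here to lower cellular energy, with 60 mM glucose or 60 mM mannitol. GlcAC and MtlAC had the same sugars; AC is not spelled out in the labels and is read here as the incubation of submerged embryos in medium flushed with nitrogen. Glc and Mtl held the same sugars in air without DNP. Mannitol is a sugar alcohol that matches the osmotic strength of glucose without feeding the embryo as glucose does. All embryos were isolated from whole seeds, so the endosperm did not feed them, and all were kept in 10 mM calcium chloride for 24 h in darkness at 28 °C, with about 150 to 200 embryos pooled per incubation. The title poses the question of how embryos adjust to sugar, energy and oxygen. The design text calls the replicates technical, so the 2 arrays of a condition may hold the same RNA, and every p-value below measures the spread between arrays only.

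Non-symbiotic hemoglobins, also called phytoglobins, are small heme proteins of plants that bind oxygen very tightly. Their best known activity is not oxygen transport but the conversion of nitric oxide (NO) to nitrate with bound oxygen, a reaction that uses up NO made from nitrite when oxygen is short and that helps to keep NADH oxidised. The oxidised heme iron left by that reaction must be reduced again, and monodehydroascorbate reductase can do this with ascorbate. Bulk RNA cannot tell fewer cells that express a gene from less RNA per cell.

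Levels are the deposited RMA values on the log2 scale, on which 1 unit is a 2-fold difference. They have no true zero, and levels of different genes are not comparable because each probe set binds with its own strength. A difference was called when limma gave an adjusted p under 0.05 over all 36643 probe sets and the log2 difference was at least 1. Values within an array spread less with DNP (SD 1.64 to 1.67) and under AC (SD 1.67 to 1.77) than in air (SD 1.81 to 1.86). The 99th percentile of an array was likewise lower with DNP (8.69 to 8.83) and under AC (8.63 to 9.05) than in air (9.24 to 9.45). NSHB2 lay between percentiles 99.3 and 99.8 of its array on all 12 arrays, and NSHB1 between percentiles 92.8 and 98.4. For that reason values after quantile normalization, which gives every array the same spread, stand beside the calls reported here that they change.

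NSHB1 was the most variable of the 4 genes. It read 5.92 and 5.99 in GlcDNP, 5.90 and 6.41 in MtlDNP, 6.69 and 6.63 in GlcAC, 7.25 and 7.50 in MtlAC, 8.70 and 8.81 in Glc, and 8.25 and 8.06 in Mtl. The order of its condition means, high to low, was Glc, Mtl, MtlAC, GlcAC, MtlDNP and GlcDNP. The arrays of neighbours in this order lay apart except for MtlDNP and GlcDNP, which overlapped.

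NSHB2 read 9.15 and 9.18 in GlcDNP, 9.31 and 9.53 in MtlDNP, 9.60 and 9.72 in GlcAC, 10.15 and 10.35 in MtlAC, 10.38 and 10.51 in Glc, and 10.15 and 10.05 in Mtl. Its order was Glc, MtlAC, Mtl, GlcAC, MtlDNP and GlcDNP, so MtlAC and Mtl changed places relative to NSHB1. Neighbours differed by between 0.16 and 0.43 on the log2 scale. MtlAC and Mtl, the closest pair, had array values of 10.153 and 10.147 at their nearest, and their difference did not pass the test (log2 difference 0.16 ± 0.17 SE, adjusted p = 0.514).

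NSHB3 and NSHB4 were called in no contrast, and NSHB4 was dim. NSHB3 ranged from 3.76 to 4.69 over the 12 arrays and NSHB4 from 1.83 to 2.74. NSHB3 lay between percentiles 61.7 and 80.4 of its array and NSHB4 between 18.0 and 37.0, and the files give no detection call, so NSHB4 is not shown to be above background. All neighbours in the order of conditions overlapped for both genes. Conditions farther apart did not always overlap. The NSHB4 arrays lay apart in GlcDNP against Glc, MtlDNP against Mtl and MtlAC against Mtl, and the NSHB3 arrays in MtlDNP against Mtl. The same held for 63.7% of all probe sets in GlcDNP against Glc and 69.4% in MtlDNP against Mtl. That share was not counted for MtlAC against Mtl. In Glc alone, the 2 arrays of NSHB3 read 4.67 and 3.83, nearly as far apart as its whole range.

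**Figure D1:**
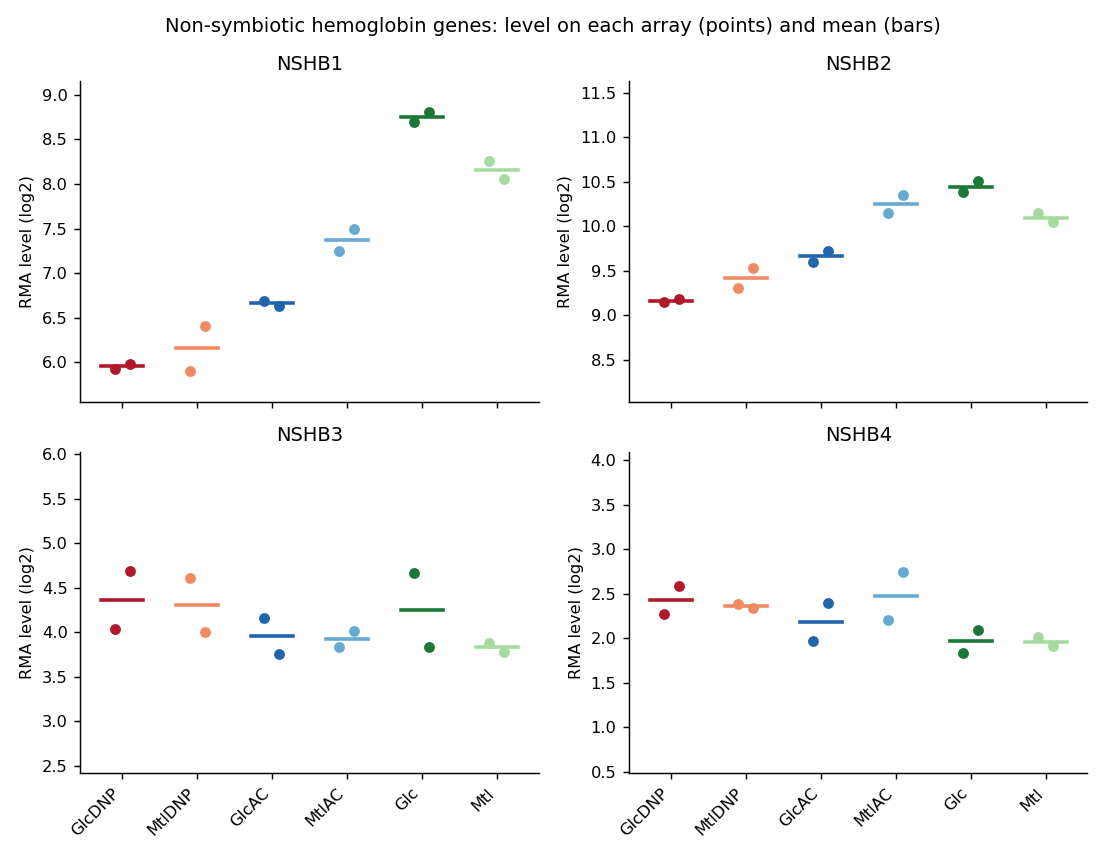
RMA level (log2, vertical axis, each panel spanning the same number of log2 units) of the 4 hemoglobin genes in the 6 conditions, with each of the 2 arrays as a point and their mean as a bar. NSHB1 and NSHB2 are lowest in GlcDNP and highest in Glc, while for NSHB3 and NSHB4 the points of conditions next to each other in the order of means overlap.

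The comparison of DNP with no DNP asked how the genes stood in air with DNP, which was used to lower cellular energy. With glucose, NSHB1 averaged 5.95 ± 0.045 in GlcDNP and 8.75 ± 0.078 in Glc (SD, n = 2 arrays each), 6.96-fold lower with DNP (log2 difference -2.80 ± 0.20 SE, adjusted p = 1.69e-05). NSHB2 averaged 9.16 ± 0.023 in GlcDNP and 10.44 ± 0.093 in Glc, 2.43-fold lower with DNP (-1.28 ± 0.17, adjusted p = 0.000423). After quantile normalization the NSHB2 difference was -0.58 and was no longer called (adjusted p = 0.0205, below the size threshold; 2.97e-05 to 0.805 over its alternatives), whereas that of NSHB1 was -2.25. NSHB3 (0.11 ± 0.33) and NSHB4 (0.47 ± 0.23) were not called, and the 95% intervals of their differences ran from -0.62 to 0.84 and from -0.06 to 0.99. So 2 of 4 hemoglobin genes fell, beside 9.28% of all probe sets called lower in this comparison.

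With mannitol, NSHB1 averaged 6.15 ± 0.36 in MtlDNP and 8.16 ± 0.14 in Mtl, 4.01-fold lower with DNP (-2.00 ± 0.20, adjusted p = 8.18e-05). It was the 1 hemoglobin gene of 4 that fell, beside 10.4% of all probe sets called lower. The difference of NSHB2, 9.42 ± 0.16 in MtlDNP against 10.10 ± 0.072 in Mtl, passed the p-value but not the size threshold (-0.68 ± 0.17, adjusted p = 0.0128), and it was -0.07 after quantile normalization. NSHB3 stood at 0.48 ± 0.33 and NSHB4 at 0.40 ± 0.23, neither of them called. In both DNP comparisons the 4 DNP arrays of NSHB1 lay at or below 6.41 and the 4 air arrays at or above 8.06. Over all probe sets the groups did not overlap for 63.7% with glucose and 69.4% with mannitol.

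The comparison of AC with air asked the same of the AC incubation. As read here, AC joins submergence with nitrogen flushing, and the parts of oxygen and submergence cannot be told apart. With glucose, NSHB1 averaged 6.66 ± 0.041 in GlcAC and 8.75 ± 0.078 in Glc, 4.26-fold lower under AC (-2.09 ± 0.20, adjusted p = 0.000243). It was the 1 of 4 hemoglobin genes that fell, beside 3.25% of all probe sets called lower. NSHB2, at 9.66 ± 0.085 in GlcAC against 10.44 ± 0.093 in Glc, again passed the p-value but not the size threshold (-0.78 ± 0.17, adjusted p = 0.0179), and it was -0.30 after quantile normalization (adjusted p = 0.319; 0.00249 to 1.0 over its alternatives).

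With mannitol, none of the 4 genes was called under AC, beside 12.2% of all probe sets called in either direction. NSHB1 averaged 7.37 ± 0.18 in MtlAC and 8.16 ± 0.14 in Mtl, and its difference passed the p-value but not the size threshold (-0.78 ± 0.20, adjusted p = 0.0194). It was -0.30 after quantile normalization (adjusted p = 0.286; 0.00898 to 1.0 over its alternatives). NSHB2 stood at 0.16 ± 0.17 and at 0.68 after quantile normalization, and NSHB4, 2.47 ± 0.38 in MtlAC against 1.96 ± 0.070 in Mtl, at 0.51 ± 0.23 (adjusted p = 0.137). No hemoglobin gene was called higher under AC than in air with either sugar. The shares of all probe sets called higher were 2.01% with glucose and 3.56% with mannitol.

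AC and DNP were also compared directly, which sets the AC incubation beside DNP in air. With mannitol, NSHB1 averaged 7.37 ± 0.18 in MtlAC and 6.15 ± 0.36 in MtlDNP, 2.33-fold higher under AC (1.22 ± 0.20, adjusted p = 0.011). That was 1 of 4 hemoglobin genes, beside 1.56% of all probe sets called higher. This call was lost when replicate 1 of MtlDNP was left out (0.97) and when replicate 2 of MtlAC was left out. It was also lost when the compared groups were fitted alone, and with treat, a test against the size threshold. With glucose, NSHB1 averaged 6.66 ± 0.041 in GlcAC and 5.95 ± 0.045 in GlcDNP and was not called (0.71 ± 0.20, adjusted p = 0.0573); none of the 4 genes was called there, beside 5.26% of all probe sets. NSHB2 stood at 0.83 ± 0.17 with mannitol (adjusted p = 0.0272) and at 0.50 ± 0.17 with glucose (adjusted p = 0.101), under the size threshold in each case. AC was compared with DNP and with air on the same AC arrays, so these results are not independent.

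**Figure D2:**
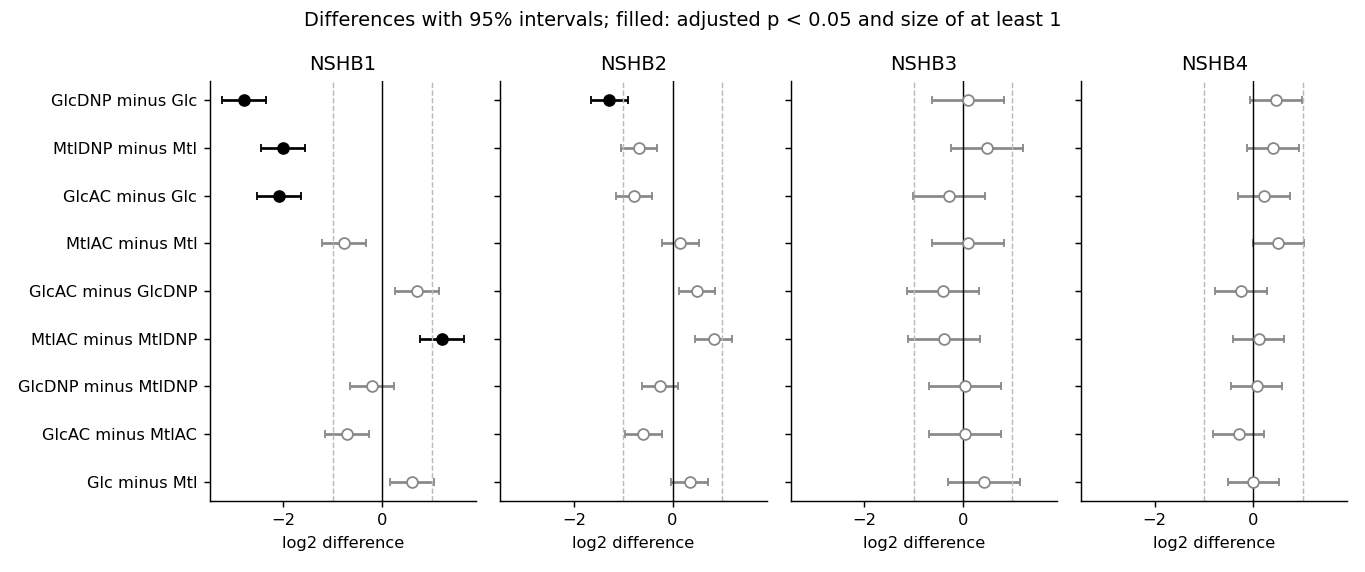
Log2 differences (horizontal axis) of the 4 hemoglobin genes for 9 comparisons of conditions (rows), as points with 95% confidence intervals from limma. Filled points passed both thresholds, 4 of them for NSHB1 and 1 for NSHB2, and dashed lines mark a log2 difference of 1 in either direction.

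For sugar, none of the 4 genes passed the test in any environment, beside 0.0136% of all probe sets called with DNP, 2.66% under AC and 2.00% in air. Those shares are 5, 975 and 733 probe sets, and leaving out 1 array moved them. With DNP the count ranged from 0 to 21. Under AC it was 394 without replicate 1 of GlcAC, 295 without replicate 2 of GlcAC and 581 without replicate 1 of MtlAC. In air it was 456 without replicate 1 of Glc, 414 without replicate 1 of Mtl and 424 without replicate 2 of Mtl. The sign of the NSHB1 and NSHB2 differences nevertheless differed between environments. Under AC, NSHB1 read 6.69 and 6.63 in GlcAC against 7.25 and 7.50 in MtlAC (-0.71 ± 0.20, adjusted p = 0.0905; 0.0169 to 1.0 over its alternatives), and NSHB2 read 9.60 and 9.72 in GlcAC against 10.15 and 10.35 in MtlAC (-0.59 ± 0.17, adjusted p = 0.0898). In air, NSHB1 read 8.70 and 8.81 in Glc against 8.25 and 8.06 in Mtl (0.60 ± 0.20, adjusted p = 0.205), and NSHB2 read 10.38 and 10.51 in Glc against 10.15 and 10.05 in Mtl (0.35 ± 0.17, adjusted p = 0.414). After quantile normalization the NSHB1 difference under AC was -1.05 and was called (adjusted p = 0.0169), the 1 of its 18 alternatives in which it was. So for both genes the glucose arrays were the lower pair under AC and the higher pair in air, with no overlap in either environment. The groups did not overlap for 49.2% of all probe sets under AC and 44.1% in air, and for 9.63% they lay apart in both environments and in opposite order. With DNP the sugar differences were -0.20 ± 0.20 for NSHB1 and -0.26 ± 0.17 for NSHB2, with adjusted p of 0.88 and 0.788. The arrays of NSHB1 overlapped there, whereas those of NSHB2 lay apart, with glucose lower. With DNP, 34.1% of all probe sets lay apart in this way, and 8.11% lay apart in opposite order with DNP and in air.

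The interaction of sugar and AC tested this difference between environments directly. It was -1.31 ± 0.28 for NSHB1 (adjusted p = 0.0673) and -0.94 ± 0.23 for NSHB2 (adjusted p = 0.104), and neither was called, beside 1.15% of all probe sets (423, and between 72 and 403 with 1 array left out). NSHB1 was called in 5 of 18 alternatives, among them quantile normalization (-1.53, adjusted p = 0.0398; 0.0252 to 1.0 over its alternatives). The same contrast compares AC with air between the sugars, where NSHB1 stood at -2.09 with glucose and -0.78 with mannitol. The interaction of sugar and DNP was -0.80 ± 0.28 for NSHB1 (adjusted p = 0.311) and -0.61 ± 0.23 for NSHB2 (adjusted p = 0.355), with 1.19% of all probe sets called. Both interactions use the Glc and Mtl arrays and are not independent. For NSHB3 the interactions were -0.39 ± 0.46 with AC and -0.37 ± 0.46 with DNP, and for NSHB4 -0.30 ± 0.33 and 0.06 ± 0.33.

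**Figure D3:**
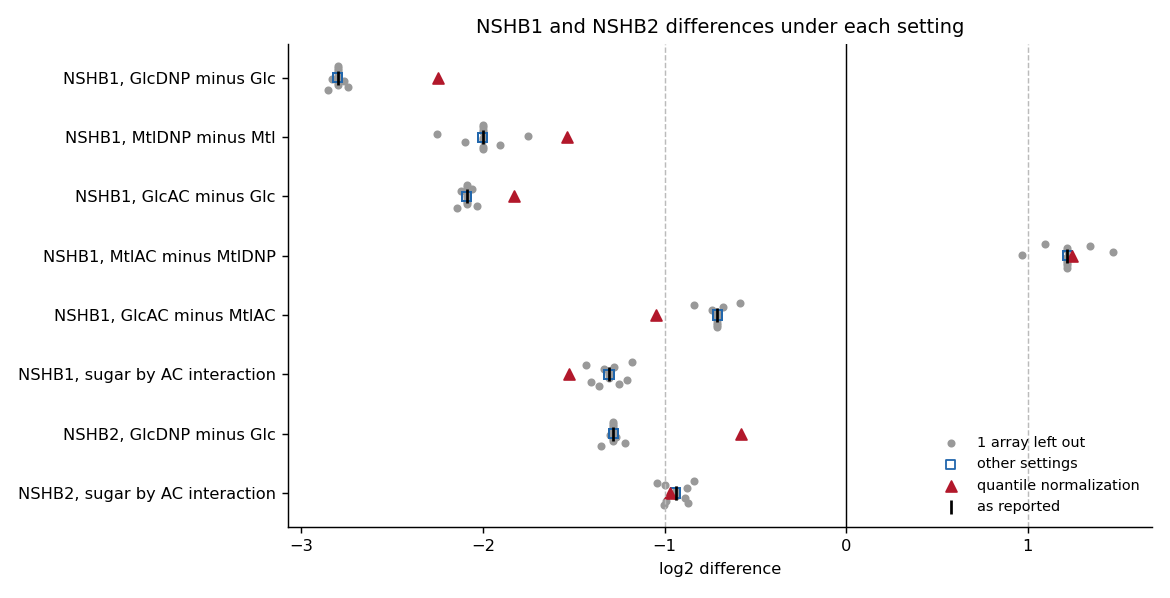
Log2 differences (horizontal axis) of NSHB1 and NSHB2 for 8 results (rows) as reported (bar), after quantile normalization (triangle), under the other settings of the fit (squares) and with each of the 12 arrays left out in turn (grey points). The largest move is that of NSHB2 in GlcDNP against Glc, from -1.28 as reported to -0.58 after quantile normalization.

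The 4 homeobox genes that share the name HB were not called in any of 44 pairs of gene and contrast. Their log2 differences lay between -0.77 and 0.69, with a lowest adjusted p of 0.0589. Of all 36643 probe sets, between 5 (GlcDNP against MtlDNP) and 5983 (MtlDNP against Mtl) were called per contrast. HOX10 and HOX29 were dim, with means of 2.21 and 2.94 over the 12 arrays.

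NO and nitrate genes came next, since NO is the substrate of these hemoglobins. Of the listed genes 2 were measured. FALDH, the glutathione-dependent formaldehyde dehydrogenase that also breaks down S-nitrosoglutathione, read 6.58 and 6.56 in GlcDNP, 6.34 and 6.56 in MtlDNP, 7.87 and 7.95 in GlcAC, 6.54 and 6.59 in MtlAC, 8.95 and 8.98 in Glc, and 9.05 and 8.95 in Mtl. It fell with DNP, 5.26-fold with glucose (-2.40 ± 0.16, adjusted p = 1.13e-05) and 5.86-fold with mannitol (-2.55 ± 0.16, adjusted p = 6.76e-06). It also fell under AC with mannitol, 5.42-fold (-2.44 ± 0.16, adjusted p = 1.49e-05), and by 1.06 on the log2 scale with glucose, a call lost after quantile normalization (-0.76). Its interaction of sugar and AC was 1.38 ± 0.22 (adjusted p = 0.0201), of the opposite sign to the uncalled value of NSHB1. NIA1, a nitrate reductase gene, was dim at 1.82 to 3.02 and was called in no comparison.

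Genes of the ascorbate cycle include the reductases that can restore oxidised hemoglobin. Of 11 measured, 5 fell and none rose in GlcDNP against Glc (median log2 difference -0.62, beside 0.10 for all probe sets), and 2 fell and 1 rose in MtlDNP against Mtl (median -0.44, beside 0.15). Under AC, 1 fell with glucose (median -0.51, beside 0.03), and 4 fell and 1 rose with mannitol (median -0.11, beside 0.10). Among the monodehydroascorbate reductase genes, MDAR5 fell by 1.03 with DNP and glucose (adjusted p = 0.0155; -0.84 and not called after quantile normalization), while MDAR1 and MDAR2 stood at 0.53 and 0.24 there. The ascorbate peroxidase gene APX2 fell in all 4 comparisons, by 1.66 with DNP and glucose, by 1.64 with DNP and mannitol, by 1.23 under AC with glucose and by 1.63 under AC with mannitol. APX1 fell by 1.18 under AC with mannitol, a call lost after quantile normalization (-0.97). APX3 rose, by 1.06 with DNP and 1.45 under AC, with mannitol. No gene of this list was called for sugar. Beside these counts, the shares of all probe sets called lower were 9.28% with DNP and glucose and 10.4% with DNP and mannitol. Under AC they were 3.25% with glucose and 8.65% with mannitol. The shares called higher were 4.67% with DNP and glucose and 5.91% with DNP and mannitol. Under AC these were 2.01% with glucose and 3.56% with mannitol.

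Ethanol fermentation genes mark the response to lack of oxygen, since they regenerate NAD+ when respiration stops. Of the 3 measured, Adh2 (alcohol dehydrogenase) rose under AC, to 4.08 and 3.89 in GlcAC against 2.34 and 2.55 in Glc (1.54 ± 0.20, adjusted p = 0.00158) and to 3.70 and 3.16 in MtlAC against 2.18 and 2.25 in Mtl (1.22 ± 0.20, adjusted p = 0.00236). PDC2 (pyruvate decarboxylase) rose under AC with mannitol (1.40 ± 0.18, adjusted p = 0.000459) and stood at 0.68 ± 0.18 with glucose, below the size threshold. PDC3 was not called. Adh2 and PDC3 were dim, with means of 2.58 and 2.37 over the 12 arrays. Of all probe sets, 2.01% were called higher under AC with glucose and 3.56% with mannitol. Adh2 was thus called higher, and NSHB1 lower, in GlcAC against Glc. With DNP, PDC2 fell with glucose (-1.63 ± 0.18, adjusted p = 0.000147) and Adh2 stood at -0.80 ± 0.20.

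AOX1 encodes alternative oxidase, which passes electrons to oxygen without pumping protons. It read 7.84 and 7.65 in GlcDNP, 7.85 and 8.02 in MtlDNP, 5.81 and 5.76 in GlcAC, 5.88 and 6.04 in MtlAC, 7.45 and 7.00 in Glc, and 7.22 and 7.06 in Mtl. AOX1 fell under AC with glucose (-1.44 ± 0.19, adjusted p = 0.00168) and with mannitol (-1.18 ± 0.19, adjusted p = 0.00204; -0.78 and not called after quantile normalization). With DNP it stood at 0.52 ± 0.19 with glucose and 0.80 ± 0.19 with mannitol, the opposite sign to NSHB1. The value with mannitol was 1.29 and was called after quantile normalization (adjusted p = 0.00153). The 1 gene matched on the list of oxygen sensing and related ethylene response factors, EREBP-1, was called in no comparison.

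**Figure D4:**
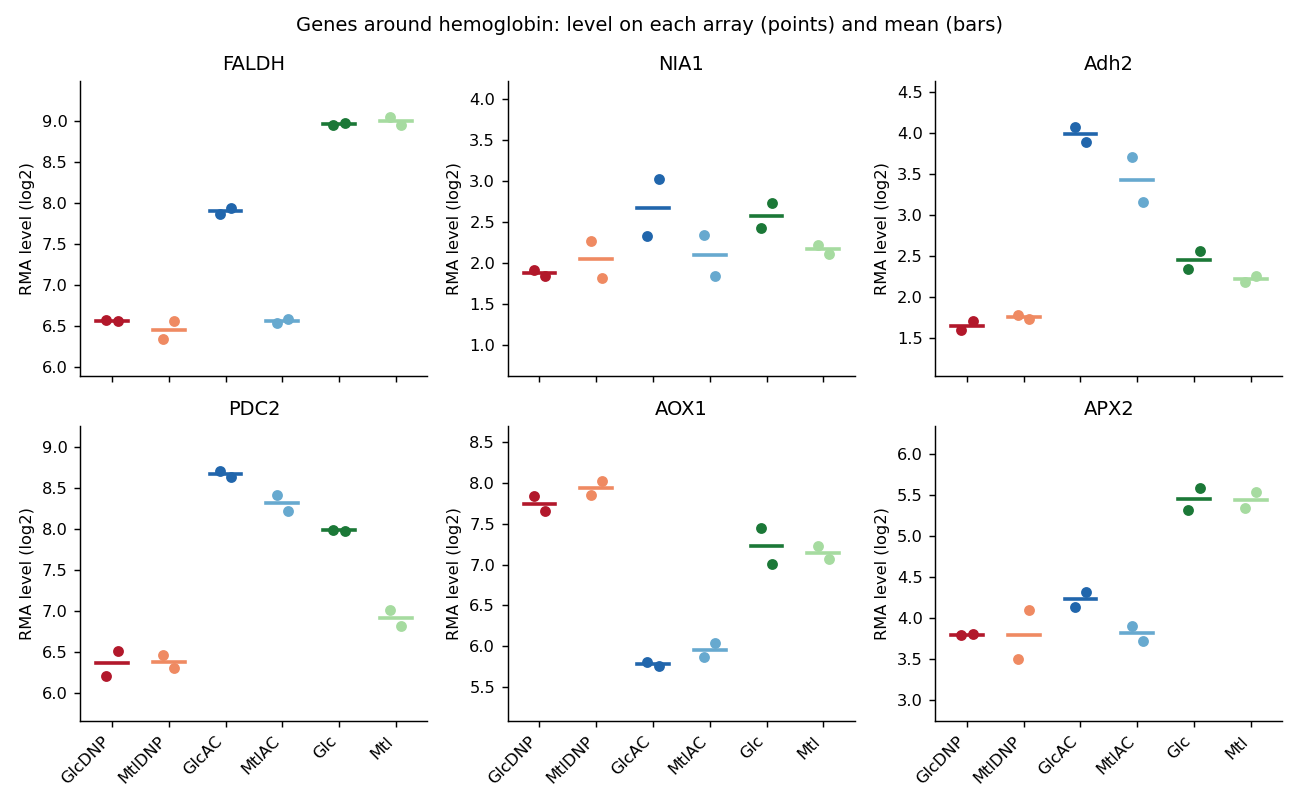
RMA level (log2, vertical axis, each panel spanning the same number of log2 units) of 6 genes of NO turnover, nitrate reduction, fermentation, respiration and the ascorbate cycle in the 6 conditions, with each array as a point and the mean as a bar. FALDH and APX2 are higher in air than with DNP or under AC, Adh2 is highest under AC, and AOX1 is lowest under AC.

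Heme genes were measured for 5 of those listed. HO1 (heme oxygenase, which breaks heme down) fell by 1.50 in MtlDNP against Mtl and by 1.06 in Glc against Mtl, and GSA (glutamate-1-semialdehyde aminotransferase, an early enzyme of tetrapyrrole synthesis) fell by 1.10 with DNP and by 1.11 under AC, both with mannitol. The call of HO1 for sugar in air was lost after quantile normalization (-0.97). So was its call for the interaction of sugar and AC (1.38 as deposited, 1.23 with adjusted p = 0.0798 after quantile normalization). GluTR and HEMB, which act in the same synthesis route, were not called as deposited. GluTR stood at -0.92 in GlcAC against GlcDNP, and at -1.15 and called after quantile normalization (adjusted p = 0.00138). HO1 was the 1 of 5 heme genes called in that comparison as deposited, where it was higher by 1.04. After quantile normalization HO1 stood at 1.02 and was still called (adjusted p = 0.00823). In the same comparison 5.26% of all probe sets were called in either direction. NSHB1 fell by 2.80 in GlcDNP against Glc and by 2.09 in GlcAC against Glc, where none of the 5 was called. After quantile normalization GluTR was called higher in GlcDNP against Glc (1.15, adjusted p = 0.000461, and 0.84 as deposited). In MtlDNP against Mtl, where NSHB1 fell by 2.00, 2 of the 5 were called lower, HO1 and GSA. Of all probe sets, 9.28% were called lower and 4.67% higher in GlcDNP against Glc. In GlcAC against Glc, 3.25% were called lower and 2.01% higher, and in MtlDNP against Mtl, 10.4% lower and 5.91% higher. Cytokinin signalling is known to activate the promoter of rice NSHB2, so type-A response regulators, which cytokinin induces, were also counted. Of 9, 2 rose with DNP with each sugar, beside 4.67% of all probe sets called higher with glucose and 5.91% with mannitol. OsRR6 rose by 1.25 with glucose and 1.19 with mannitol. OsRR13 rose by 1.06 with glucose and 1.01 with mannitol, calls that were lost after quantile normalization (0.95 and 0.86). Both genes were dim, with means over the 12 arrays of 2.71 for OsRR6 and 2.57 for OsRR13. OsRR6 also rose by 1.55 in MtlAC against Mtl, and none fell. These lists are short because members could be matched only by symbol or synonym.

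Patterns over the 6 condition means were compared by Pearson's r among 639 other probe sets of named genes whose condition means had an SD of at least 0.5. This r is a description over 6 conditions that share arrays and normalization. Closest to NSHB1 were JAZ12, a jasmonate ZIM-domain repressor gene (r = 0.987), the small GTPase gene OsRac7 (0.968), DI1, also DI19-6 (0.951), MRS2-B of the MRS2 family of magnesium transporters (0.950) and the ethylene receptor gene ERS1 (0.943). Of the 639, 27 or 4.23% had an r of at least 0.9. Closest to NSHB2 was NSHB1 itself (0.933), the 1 gene at or above 0.9, followed by a calmodulin gene also named CAM3 (0.885), JAZ12 (0.875), the zinc finger gene OsC3H14 (0.866) and a chitinase gene (0.863).

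JAZ12 had condition means of 7.12 in GlcDNP, 7.24 in MtlDNP, 7.38 in GlcAC, 7.57 in MtlAC, 8.40 in Glc and 8.07 in Mtl, the same order as NSHB1 with a narrower range. For NSHB3 and NSHB4 the SD of the condition means was 0.23 each, below the 0.5 asked of the other genes, so their lists follow small moves. HOX1, OsNrx2, IAA11, OsSSI2 and OsTLP10 were closest to NSHB3 (0.781 to 0.880). GLUP4, OsRR6, OsPRR95 and the heat shock genes HSP16.9C and CLPB1 were closest to NSHB4 (0.978 to 0.996). Of the 640 probe sets compared with NSHB4, 63 or 9.84% had an r of at least 0.9. Among the hemoglobins, r with NSHB1 was -0.42 for NSHB3 and -0.77 for NSHB4.

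**Figure D5:**
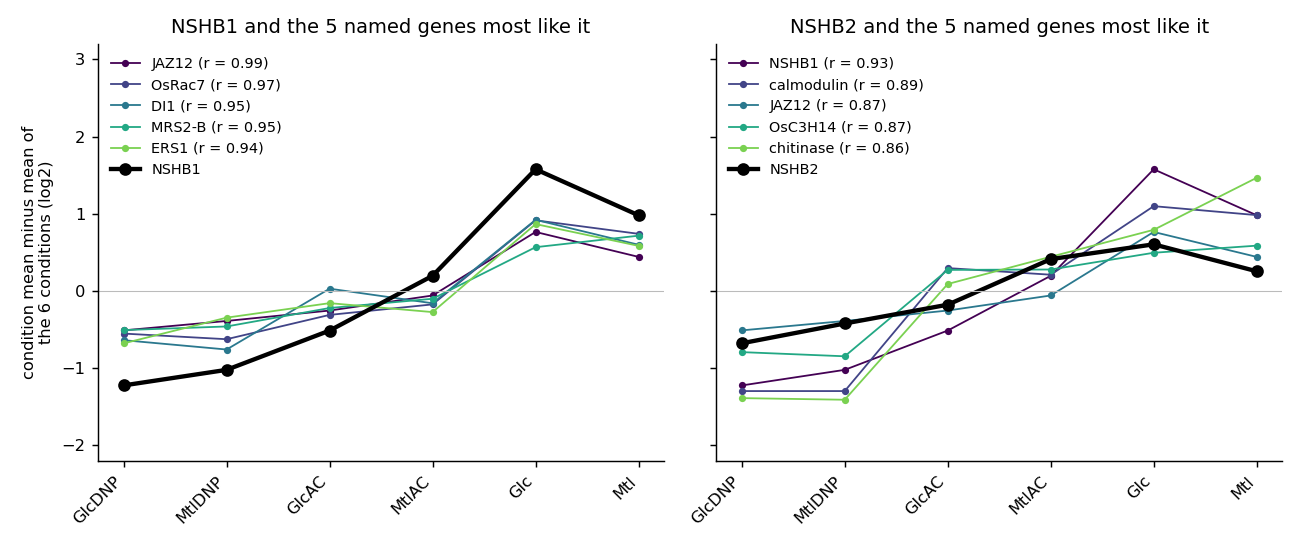
Condition means minus the mean of the 6 conditions (log2, vertical axis) for NSHB1 (left) and NSHB2 (right) in black, each with the 5 named genes of highest Pearson r in colour. The lines join unordered conditions to guide the eye, and JAZ12 has the order of NSHB1 over a smaller range.

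The labelled tissue was checked on 6 matched embryo genes. OLE18 (an oleosin of oil bodies) ranged from 6.29 to 8.60, Emp1 from 5.88 to 8.52, LEA-3 from 6.65 to 8.45, RAB21 from 3.15 to 5.62, OsVP1 from 4.51 to 5.33 and OSH1 from 2.87 to 3.56 over the 12 arrays. In GlcDNP against Glc, OLE18, Emp1, LEA-3 and RAB21 rose, by 1.70 to 2.47, while OSH1 stood at -0.40 and OsVP1 at -0.08, neither of them called. So 4 of the 6 embryo genes rose there, beside 4.67% of all probe sets called higher. The mean level of the 6 genes lay between 6.38 and 6.59 on the DNP arrays and between 5.58 and 6.26 on the AC arrays. In air it lay between 5.11 and 5.28. By environment it was thus highest with DNP, where NSHB1 was lowest. By condition it was highest in MtlDNP (6.52 to 6.59), whereas NSHB1 had its lowest mean in GlcDNP. Under AC both were higher in MtlAC (markers 6.12 to 6.26, NSHB1 7.37) than in GlcAC (5.58 to 5.76, NSHB1 6.66). The mean of 9 endosperm genes lay between 2.38 and 2.72 with DNP, between 2.01 and 2.82 under AC and between 1.97 and 2.32 in air, and that of 3 green shoot genes lay between 2.22 and 2.54 with DNP, between 2.01 and 2.41 under AC and between 1.84 and 2.51 in air. Single endosperm genes were called: the glutelin gene GLUA-1, at 2.17 to 4.68 over the arrays, rose in GlcDNP against Glc (1.84, adjusted p = 0.00111) and in GlcAC against Glc (1.12, adjusted p = 0.0367; not called after quantile normalization) and fell in Glc against Mtl (-1.55, adjusted p = 0.0176). The glutelin gene GLUB-4 (-1.49, adjusted p = 0.0093) and a prolamin gene (-1.50, adjusted p = 0.0117) fell in GlcAC against MtlAC. These calls were 1 of 9 endosperm genes in each comparison named for GLUA-1 and 2 of 9 in GlcAC against MtlAC. Beside them, 2.01% of all probe sets were called higher in GlcAC against Glc. For sugar, 2.00% were called in either direction in air and 2.66% under AC. No green shoot gene was called in the DNP and AC comparisons with air, and CAB2R (light harvesting) ranged from 0.87 to 2.26. The part of these shifts in the hemoglobin results was not tested.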

How the data were processed

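The authors' deposited table holds log2 RMA expression values of 36643 probe sets on 12 arrays, made with Expression Console at the core level, per the labels, and with Affymetrix Power Tools, per the submitters' processing notes. Their versions and the annotation behind the probe sets were not given in the sources used here. The base of the logarithm was taken as 2 from the values. RMA corrects background, normalizes arrays and summarises each probe set. The deposited arrays still differed in spread, with SDs from 1.64 with DNP to 1.86 in air. Probe sequences were not used here, so cross-hybridisation between the hemoglobin genes was not tested.

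Gene names come from GEO's annotation of the platform (24161 with 1 gene, 90 with several, the rest unnamed here) and RefSeq assembly GCF_034140825.1, where all 24161 were found and 2744 had an informative name; it served for names and gene order only. limma 3.58.1 in R 4.3.3 fitted 1 coefficient per condition over all 12 arrays, with 6 residual and 3.82 prior degrees of freedom, 11 contrasts and Benjamini-Hochberg adjustment over all probe sets; the method was tested on simulated data. The number of arrays limits the precision. Named are all probe sets matching the rule, the 5 genes most like each hemoglobin, and up to 4 members per list; genes plotted and further list members were picked after their values were seen. SK1 and SK2, and FC1 where it names the cinnamyl alcohol dehydrogenase CAD7, were dropped from the lists as other genes of that name. Members and lists were chosen with earlier results of these data known. Alternatives were quantile normalization, trend and robust empirical Bayes, no probe sets with a mean under 3, treat, the compared arrays alone, the replicate number as a block, and leaving out each array.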

Additional observations from a re-analysis of the deposited data

Results flagged for a closer look

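The glucose-over-mannitol differences of NSHB1 and NSHB2 had opposite signs in different environments, with no overlap between the arrays of the 2 sugars. For NSHB1 the log2 difference was -0.71 under AC and 0.60 in air. For NSHB2 it was -0.59 under AC, -0.26 with DNP and 0.35 in air. The differences between environments were tested as interactions and none was called: adjusted p = 0.0673 for NSHB1 with AC, and adjusted p = 0.104 with AC and adjusted p = 0.355 with DNP for NSHB2. Of all probe sets, 9.63% had such an opposite order under AC and in air, and 8.11% with DNP and in air.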

How the results depend on the processing

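Over 66 counts of called hemoglobin genes recomputed under the 6 settings other than left-out arrays, 58 were the same and 8 moved. After quantile normalization 1 gene in place of 2 was called for GlcDNP against Glc, 1 in place of 0 for GlcAC against MtlAC, and 1 in place of 0 for the interaction of sugar and AC; that interaction also had 1 with trend and robust empirical Bayes and 1 without dim probe sets. With treat, 1 in place of 2 was called for GlcDNP against Glc. For MtlAC against MtlDNP, 0 in place of 1 was called with treat and with the compared arrays alone. With arrays left out, the count ranged from 0 to 1 for MtlAC against MtlDNP and for the interaction of sugar and AC, and was the same for the other 9 contrasts. The calls of NSHB1 for GlcDNP against Glc (-2.86 to -2.25), MtlDNP against Mtl (-2.25 to -1.54) and GlcAC against Glc (-2.14 to -1.83) held in all 18 alternatives; the causes of the changes were not tested. Directions turned only for values that were not called. NSHB4 for sugar in air was -0.037 after quantile normalization. With arrays left out, NSHB1 for sugar with DNP ranged from -0.45 to 0.050. NSHB3 ranged from -0.71 to 0.13 for AC with glucose, -0.30 to 0.53 for DNP with glucose, -0.80 to 0.032 and -0.78 to 0.051 for the interactions with AC and DNP, -0.17 to 0.23 for sugar under AC and -0.27 to 0.38 for sugar with DNP. NSHB4 ranged from -0.00186 to 0.43 for AC with glucose, -0.16 to 0.38 for MtlAC against MtlDNP, -0.093 to 0.22 for the interaction with DNP, -0.090 to 0.22 for sugar with DNP and -0.13 to 0.14 for sugar in air. NSHB4 is dim (mean under 3) and has no value without dim probe sets.

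Counts over all probe sets moved from 5113 as reported to between 1238 and 5672 for GlcDNP against Glc, from 5983 to between 1268 and 6595 for MtlDNP against Mtl, from 1925 to between 227 and 1983 for GlcAC against Glc, from 750 to between 91 and 874 for MtlAC against MtlDNP, from 975 to between 0 and 1073 for GlcAC against MtlAC, from 733 to between 145 and 797 for Glc against Mtl, from 5 to between 0 and 21 for GlcDNP against MtlDNP, from 423 to between 17 and 747 for the interaction of sugar and AC, and from 435 to between 78 and 544 for that of sugar and DNP. In these 9 comparisons treat gave the lowest count, or for GlcDNP against MtlDNP one of several counts of 0. With the replicate block, the counts of called hemoglobin genes were 2 for GlcDNP against Glc, 1 each for MtlDNP against Mtl, GlcAC against Glc and MtlAC against MtlDNP, and 0 elsewhere, as reported. Replicate numbers did not pair the arrays: deviations of same-numbered arrays correlated at -0.0214 to 0.0873 over 15 pairs of conditions. Levels near the bottom of the arrays limit NSHB4.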
